A study of Homo sapiens with 3 samples.

Results

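The HSP70 chaperones are the protein family to which JG231, an allosteric HSP70 inhibitor, binds, and their transcripts were examined in H660 cells. H660, a human cell line, derives from neuroendocrine prostate cancer. The family was taken as 9 genes, namely HSPA1A, HSPA1B, HSPA1L, HSPA2, HSPA6, HSPA8, HSPA9, HSPA13 and HSPA14, chosen by gene symbol from a table of 58735 genes, and HSPA5 of the endoplasmic reticulum was left out. The symbol HSPA14 stands on 2 rows, so that the 9 genes occupy 10 rows. Parental H660 cells received vehicle (DMSO), 2.5 μM JG231 or 5 μM JG231 for 24 h, and RNA-seq was carried out on 1 library per condition. There was no replicate of any condition, so no standard deviation was available and no p-value is given.

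HSP70 proteins bind short hydrophobic stretches of unfolded or partly folded client proteins and release them in a cycle driven by ATP. J-domain proteins deliver clients and stimulate ATP hydrolysis, nucleotide exchange factors release ADP, and adaptors such as STUB1 (CHIP) direct bound clients to ubiquitination. Most human cells carry constitutive members, of which HSPA8 (HSC70) is the main cytosolic one and HSPA9 (mortalin) the mitochondrial one, together with members whose genes are induced through heat shock factor 1 when unfolded protein accumulates, such as HSPA1A, HSPA1B and HSPA6.

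Levels are given as FPKM, in which the fragments assigned to a gene are divided by its length and by the depth of the library, a scale that allows levels of different genes to be set side by side. Such comparisons depend on the length taken for each gene. All annotated exons and the canonical transcript cover 4849 and 2264 bases for HSPA8, 9782 and 4404 for HSPA9, and 2517 each for HSPA1B. From the steps between low FPKM values, the depth was 16.1 M fragments for DMSO, 20.4 M for 2.5 μM and 24 M for 5 μM JG231. Mitochondrial and small RNA genes held 40.5% of the summed FPKM in DMSO, 24.6% with 2.5 μM and 29.2% with 5 μM. Changes against DMSO are on the log2(FPKM + 0.1) scale, which understates the change of low genes, and the median gene, among those averaging 1 FPKM or more, stood at 0.00 with 2.5 μM and -0.01 with 5 μM. Rescaling the libraries without mitochondrial and small RNA genes moved this median to -0.29 and -0.40, so that genes only slightly higher on the deposited scale are lower on that one. The neuroendocrine markers SYP and CHGA were expressed, SYP at 17.7, 13 and 14.8 FPKM and CHGA at 46.0, 15.0 and 12.7 in the order DMSO, 2.5 μM and 5 μM, as were the epithelial genes EPCAM at 302, 262 and 261 FPKM, KRT8 at 224, 414 and 505 and KRT18 at 170, 299 and 380. The prostate luminal markers KLK3 and TMPRSS2 reached at most 0.315 FPKM in any library, although the sample records name the cell type prostatic adenocarcinoma. The part of the lower CHGA and higher KRT8 and KRT18 levels under JG231 in the results below was not tested. In bulk RNA, fewer cells of a type and less RNA per cell cannot be told apart.

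The heat shock element, the site bound by heat shock factor 1, consists of inverted repeats of GAA, and it was looked for in the 250 bases before the start of each member. The letters searched were GAANNTTC and TTCNNGAA for 2 repeat units, and either of these followed by NN and a further GAA or TTC in alternation for 3 units, where each motif reads as itself or as its partner on the other strand and matches may overlap. A match of 2 units was present in 11.6% of 35116 promoters of the RefSeq table (GRCh38.p14), and one of 3 units in 0.441%. The 4 promoters printed are those of the stress-inducible members and of HSPA8, with the matches in capitals. They run 5′ to 3′ on the strand of the gene and end at the base before its start, at chr6:31815293-31815542 (+) for HSPA1A, chr6:31827488-31827737 (+) for HSPA1B, chr1:161524290-161524539 (+) for HSPA6 and chr11:123062137-123062386 (-) for HSPA8.
HSPA1A: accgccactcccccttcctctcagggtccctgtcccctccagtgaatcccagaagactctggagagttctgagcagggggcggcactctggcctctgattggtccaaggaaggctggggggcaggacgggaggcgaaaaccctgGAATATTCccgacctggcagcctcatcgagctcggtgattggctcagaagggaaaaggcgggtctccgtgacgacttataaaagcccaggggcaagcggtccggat
HSPA1B: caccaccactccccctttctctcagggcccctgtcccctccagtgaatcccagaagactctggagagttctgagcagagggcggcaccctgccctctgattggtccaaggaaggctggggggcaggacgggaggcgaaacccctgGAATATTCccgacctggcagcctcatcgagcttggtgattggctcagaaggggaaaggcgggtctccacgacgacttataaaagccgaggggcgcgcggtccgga
HSPA6: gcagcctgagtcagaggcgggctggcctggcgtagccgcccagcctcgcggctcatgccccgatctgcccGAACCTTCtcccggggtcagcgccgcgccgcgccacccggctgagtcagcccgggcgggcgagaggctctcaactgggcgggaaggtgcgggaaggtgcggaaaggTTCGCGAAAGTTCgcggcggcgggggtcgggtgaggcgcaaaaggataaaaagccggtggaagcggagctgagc
HSPA8: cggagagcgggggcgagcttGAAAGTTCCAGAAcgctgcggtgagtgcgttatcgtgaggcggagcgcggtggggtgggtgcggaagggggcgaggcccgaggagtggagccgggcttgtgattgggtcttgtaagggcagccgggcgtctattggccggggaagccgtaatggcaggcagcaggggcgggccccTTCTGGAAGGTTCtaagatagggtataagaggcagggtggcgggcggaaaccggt
HSPA1A and HSPA1B each held 1 match of 2 units, starting at positions -106 and -105 counted back from -1 at the base before the gene, and their promoters were identical at 235 of 251 aligned positions. HSPA6 held 3 matches of 2 units, of which a pair overlapped into 1 match of 3 units starting at position -74. HSPA8 held 4 matches of 2 units that formed 2 matches of 3 units. Any link between the matches and the changes of the members was not tested. The promoters of HSPA2, HSPA9 and HSPA13 held neither form. HSPA1L lies head to head with HSPA1A, 259 bases lie between their starts, and 241 bases belong to both promoters, including the single 2-unit match. HSPA14 was not searched. The windows of HSPA2, HSPA8, HSPA9 and HSPA13 lie inside longer GENCODE genes, so other starts of these genes were not searched. A match describes letters only, not a bound site.

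**Figure D1:**
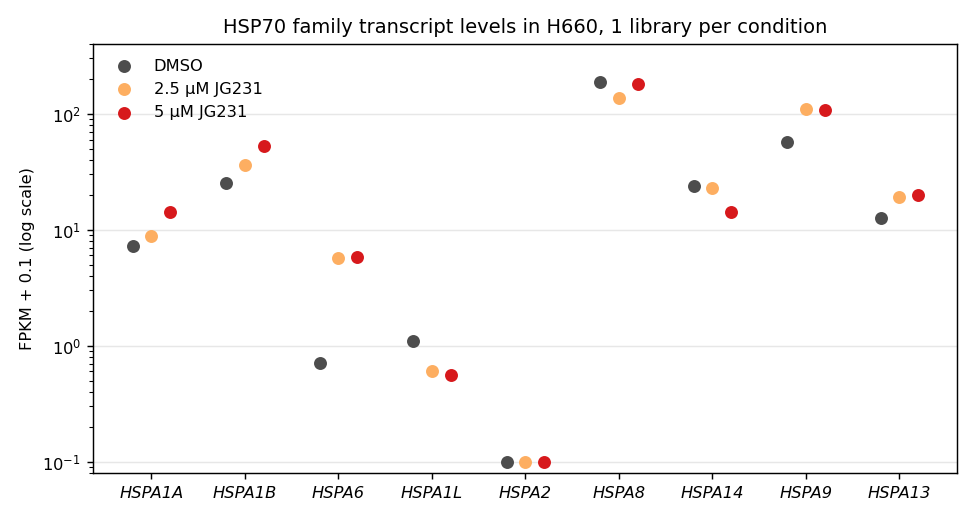
FPKM + 0.1 on a log axis for each member in the DMSO (grey), 2.5 μM JG231 (orange) and 5 μM JG231 (red) libraries, 1 point per library. HSPA8 is the highest member in each library, HSPA6 has 0.603 FPKM in DMSO and 5.73 with 5 μM, and HSPA2 is listed at 0 throughout.

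In DMSO the order of the levels was HSPA8, HSPA9, HSPA1B, HSPA14, HSPA13, HSPA1A, HSPA1L, HSPA6 and HSPA2. HSPA8 had 189 FPKM and stood at rank 114 of all genes in the table. The neighbours HSPA1B and HSPA14, at 25.2 and 23.8 FPKM, had overlapping 95% Poisson intervals of 23.7 to 26.9 and 22.1 to 25.7, which cover counting error only. The intervals of HSPA1L (0.720 to 1.33) and HSPA6 (0.385 to 0.912) overlapped as well. At 5 μM the order was HSPA8, HSPA9, HSPA1B, HSPA13, HSPA14, HSPA1A, HSPA6, HSPA1L and HSPA2, and there HSPA14 and HSPA1A were neighbours at the same 14.2 FPKM.

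The make-up of the family does not depend on how the libraries are scaled. It does depend on the gene lengths used and on how reads common to HSPA1A and HSPA1B were counted. HSPA8 made up 59.8% of the summed FPKM of the 9 members in DMSO, 40.3% at 2.5 μM and 45.6% at 5 μM. HSPA9 made up 18.0%, 32.3% and 27.4%, and HSPA1A with HSPA1B 10.3%, 13.3% and 16.9%. The share of HSPA6 went from 0.190% in DMSO to 1.66% and 1.45%, and that of HSPA14 from 7.53% to 6.71% and 3.59%. For each FPKM of HSPA1A and HSPA1B together there were 5.84 FPKM of HSPA8 in DMSO, 3.03 at 2.5 μM and 2.71 at 5 μM. Both JG231 libraries thus held less HSPA8 relative to the inducible pair and to HSPA9 than the DMSO library, with the 5 μM library lowest against the pair and the 2.5 μM library lowest against HSPA9. The summed FPKM of the family was 317, 339 and 395.

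**Figure D2:**
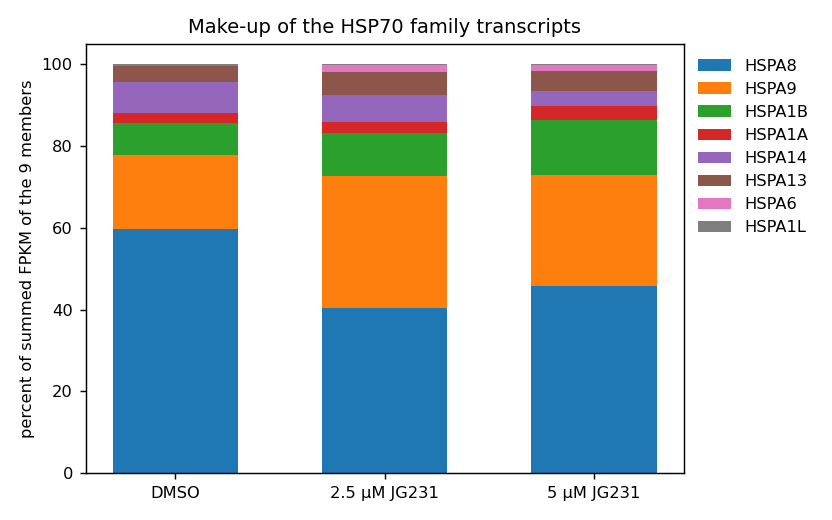
Stacked bars of each member's percent of the summed FPKM of the 9 members in the 3 libraries, 1 bar per library. HSPA8 takes 59.8% in DMSO, 40.3% at 2.5 μM and 45.6% at 5 μM, while HSPA9, HSPA1B and HSPA6 take larger shares in both JG231 libraries.

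A gene was counted as higher or lower when 1 of the compared libraries, or both, had over 1 FPKM and the log2 change exceeded 0.25 in size. At 2.5 μM, 8 of the 9 members passed the expression filter, 5 were higher, 2 were lower and 1 was within the threshold. Of 15746 genes passing the same filter, 36.4% were higher and 43.4% were lower. At 5 μM, 5 of 8 members were higher and 2 lower, against 36.5% and 45.1% of 15765 genes. Since 79.8% and 81.6% of all genes lay past this threshold, the number of members past it (7 of 8 at each dose) was near the background. HSPA1L passed the expression filter only through the DMSO library and HSPA6 only through the JG231 libraries, so the filter fixed their direction. A filter on the mean of the libraries (5 FPKM or more) drops both, and 4 members were then higher and 1 lower at each dose. The share of all genes under that filter was not computed. With a mean of 1 FPKM or more, 38.4% of 13785 genes were higher and 38.3% lower at 2.5 μM. At 5 μM these shares were 38.6% and 40.2%. Past a log2 change of 1 there was 1 member at 2.5 μM, HSPA6, and there were 2 at 5 μM, HSPA6 and HSPA1B, all of them higher, against 12.9% and 14.7% of genes, while 0 members and 21.7% and 24.3% of genes were lower by as much. HSPA1B passed 1 narrowly at 1.05, and stood at 0.92 with the libraries scaled to 1 FPKM sum, 0.86 with a trend in transcript length removed and 0.67 with mitochondrial and small RNA genes left out of the scaling. The median over the 8 members was 0.40 at 2.5 μM and 0.79 at 5 μM. On the last of these scales it was 0.11 and 0.42. There, at 2.5 μM, 3 rather than 5 members were higher and 3 rather than 2 lower. At 5 μM 5 were higher and 3 lower on that scale. The share of all genes past the threshold was not computed on it, and its median gene stood at -0.29 and -0.40. Both comparisons share the DMSO library, so the same member's values at the 2 doses are not independent.

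**Figure D3:**
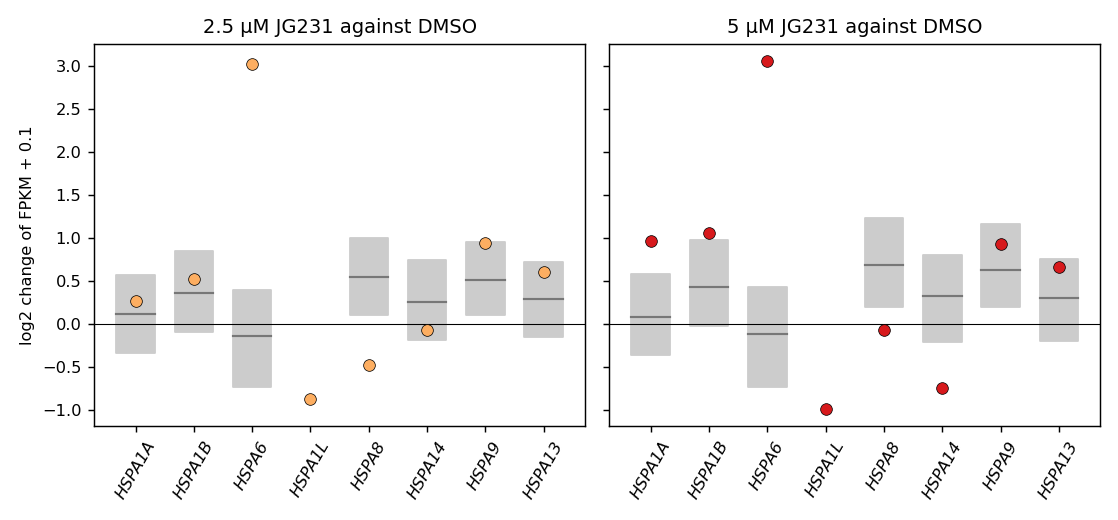
Log2 change of each member against DMSO at 2.5 μM (left) and 5 μM JG231 (right), 1 library each. Grey boxes span the lower to upper quartile, and the grey line marks the median, of the changes of the 500 genes nearest to the member in mean FPKM (none drawn for HSPA1L, whose mean is under 1 FPKM). HSPA6 lies far above its box at both doses, and HSPA8 lies below its box at both.

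The inducible cytosolic members are described first. HSPA1A (ENSG00000204389, chromosome 6, 31815543 to 31817946 on GRCh38, + strand) and HSPA1B (ENSG00000204388, chromosome 6, 31827738 to 31830254, + strand) code for the near-identical major stress-induced HSP70 proteins. HSPA1A had 7.21 FPKM in DMSO, 8.72 with 2.5 μM and 14.2 with 5 μM. HSPA1B had 25.2, 36.4 and 52.5 FPKM. Both stepped upward from DMSO to the lower and to the higher dose. Of the 2251 stretches of 150 bases, the length of a read, in the HSPA1A transcript, 69.6% also occur in HSPA1B, and 66.1% of those of HSPA1B occur in HSPA1A, so the counting could divide reads between them. Their sum does not depend on such a division. The sum would be too low if shared reads were left out, and how they were counted is not given. HSPA1A took 22.2%, 19.3% and 21.3% of that sum in DMSO, 2.5 μM and 5 μM. The sum was 32.5 FPKM in DMSO, 45.1 with 2.5 μM and 66.7 with 5 μM, which is 1.39-fold and 2.05-fold the DMSO level.

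On the log2 scale the sum was higher by 0.47 at 2.5 μM and 1.04 at 5 μM. The 500 genes nearest to it in mean FPKM had a median change of 0.40 with an upper quartile of 0.84 at 2.5 μM, and 0.47 with an upper quartile of 0.95 at 5 μM. The pair was therefore close to the middle of equally abundant genes at the lower dose and above their upper quartile at the higher one. With the libraries rescaled without mitochondrial and small RNA genes the change of the sum at 2.5 μM was 0.18, under the threshold, and that of HSPA1A alone turned from 0.27 to -0.02, while at 5 μM they were 0.66 and 0.59. The difference between the JG231 libraries, in which the DMSO library has no part, was 0.56 for the sum, against a spread of 0.22, the robust standard deviation of that difference over the same 500 genes. HSPA1B stood on about 1022, 1864 and 3174 fragments, which gave 95% intervals of its log2 change of 0.41 to 0.64 at 2.5 μM and 0.95 to 1.16 at 5 μM (counting error only).

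HSPA6 (ENSG00000173110, chromosome 1, 161524540 to 161526894, + strand) codes for HSP70B′, a member that is almost silent in unstressed cells and strictly induced by stress. It had 0.603 FPKM in DMSO, 5.63 with 2.5 μM and 5.73 with 5 μM. Both JG231 libraries were far above DMSO and close to each other, 9.34-fold and 9.51-fold the DMSO level. Its log2 changes of 3.03 and 3.05 were the largest of the family and placed it at rank 464 of 15746 genes at 2.5 μM and 437 of 15765 at 5 μM. It rested on about 23 fragments in DMSO, 270 at 2.5 μM and 324 at 5 μM, which gave intervals of 2.60 to 3.89 and 2.63 to 3.91. With a pseudocount of 1, which weighs down low values, the changes were 2.05 and 2.07. The transcript shares 15.3% of its 150-base stretches with the pseudogene HSPA7, which was listed at 0 in the DMSO and 2.5 μM libraries and stood on 1 fragment at 5 μM. HSPA6 remained a minor member, at 8.6% of the level of HSPA1A with HSPA1B at 5 μM.

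The qPCR primers and siRNAs that the study lists for HSP70 and HSC70 were matched to the GENCODE release 44 transcripts to show which family transcripts they match. Those with a match are shown as listed, with U as T and without DNA overhangs.
HSP70-F: tggactgttgggactcaaggac
HSP70-R: ggaacgaaacacccttacagtatca
siHSP70 #1: cagctaattaccatcaggt
siHSC70 #1: gtattgagatcgattctctctatga
siHSC70 #2: gatgccaaactagacaagtcacaga
Both primers and the first HSP70 siRNA matched HSPA1B and no other gene over their full length, in its 3′ untranslated region, where the 2 inducible transcripts differ, with the reverse primer and the siRNA matching the antisense strand. The other HSP70 siRNA had no exact match in these transcripts. Both HSC70 siRNAs matched the coding sequence of HSPA8, and the second also matched the pseudogene HSPA8P1, which was listed at 0 in the 3 libraries.

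HSPA8 (ENSG00000109971, chromosome 11, 123057489 to 123063230, - strand) codes for HSC70, the constitutive cytosolic chaperone that also uncoats clathrin and serves chaperone-mediated autophagy. It had 189 FPKM in DMSO, 136 with 2.5 μM and 180 with 5 μM, lowest in the 2.5 μM library and nearly level between the other libraries. The log2 changes were -0.47 and -0.07, and it was higher at 5 μM than at 2.5 μM by 0.40 against a spread of 0.20. The 500 genes nearest in mean FPKM had a median change of 0.54 with a lower quartile of 0.11 at 2.5 μM, and a median of 0.68 with a lower quartile of 0.20 at 5 μM. HSPA8 lay below the lower quartile of equally abundant genes at each dose. Under the rescaling that omits mitochondrial and small RNA genes the change was -0.76 at 2.5 μM and -0.45 at 5 μM, both past the threshold. About 6894, 6289 and 9821 fragments lay behind the values if all came from the canonical transcript, so counting error was small. HSPA8 has processed pseudogenes across the genome. Of their 17 rows, 12 were listed at 0 in all libraries, the others summed to at most 3.28 FPKM in a library, and none of the 150-base stretches of the HSPA8 transcript occurs in another HSP70 transcript.

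Of the organelle and ribosome members, HSPA9 (ENSG00000113013, chromosome 5, 138553756 to 138575675, - strand) codes for mortalin, which pulls precursor proteins into the mitochondrial matrix, folds them there and takes part in iron-sulphur cluster assembly. It had 56.9 FPKM in DMSO, 109 with 2.5 μM and 108 with 5 μM, so that the JG231 libraries were alike and each had 1.92-fold or 1.90-fold the DMSO level. The log2 changes were 0.94 and 0.93, and the difference between doses was -0.02 with a counting interval of -0.05 to 0.02. Equally abundant genes had upper quartiles of 0.95 at 2.5 μM and 1.16 at 5 μM, so HSPA9 lay within the middle range of such genes at both, close to its upper edge at 2.5 μM. Its changes were 0.65 and 0.55 when mitochondrial and small RNA genes were left out of the scaling. HSPA13 (ENSG00000155304, chromosome 21, 14371115 to 14383484, - strand) codes for STCH, a short member associated with microsomes that lacks the substrate-binding domain. It had 12.4, 18.9 and 19.7 FPKM, higher by 0.60 and 0.66, with upper quartiles of 0.72 and 0.75 for equally abundant genes, and on that other scale its changes were 0.31 and 0.28, just over the threshold.

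HSPA14 (ENSG00000187522, chromosome 10, 14838306 to 14871741, + strand) codes for the HSP70L1 protein of the ribosome-associated complex, which works with the J-domain protein DNAJC2 on nascent chains. It had 23.8 FPKM in DMSO, 22.7 with 2.5 μM and 14.2 with 5 μM. The DMSO and 2.5 μM libraries were close and the 5 μM library was lower, with log2 changes of -0.07 and -0.74 and a difference between doses of -0.67 against a spread of 0.27. Without mitochondrial and small RNA genes in the scaling the changes were -0.36 and -1.12. A second row with the same symbol, ENSG00000284024 (chromosome 10, 14838302 to 14846999), is named MSANTD7 in GENCODE release 44, begins 4 bases upstream on the same strand, and had 7.08, 13.2 and 13.3 FPKM, higher by 0.88 and 0.90. The transcripts share 170 stretches of 150 bases, 10.5% of those of HSPA14 and 3.77% of those of the other. Summed, the rows had 30.9, 35.9 and 27.5 FPKM, with log2 changes of 0.21 and -0.17 that were within the threshold. The lower value at 5 μM describes the HSPA14 row, while the sum mixes HSPA14 with MSANTD7 and is not another measure of HSPA14.

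HSPA1L (ENSG00000204390, chromosome 6, 31809619 to 31815283, - strand) codes for a constitutive member found mainly in testis. It had 1.0 FPKM in DMSO, 0.502 with 2.5 μM and 0.457 with 5 μM, on about 44, 28 and 30 fragments. The JG231 libraries were alike and below DMSO, with log2 changes of -0.87 and -0.98. The intervals of these changes, -1.73 to -0.28 and -1.85 to -0.43, were wide. Of all genes passing the filter, 24.5% and 24.6% stood at or below these changes. HSPA1A, which starts beside HSPA1L on the opposite strand, was higher in the same libraries on the deposited scale. At 2.5 μM this was by 0.27, and by -0.02 without mitochondrial and small RNA genes in the scaling. HSPA2 (ENSG00000126803, chromosome 14, 64535905 to 64546173, + strand), a member needed for sperm development, was listed at 0 in the 3 libraries. A count of 0 allows up to 3 fragments, or 0.0747 FPKM in DMSO, 0.0590 with 2.5 μM and 0.050 with 5 μM.

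Between the JG231 libraries, 3 of the 7 members that passed the filter were higher at 5 μM than at 2.5 μM (HSPA1A, HSPA1B and HSPA8) and 1 was lower (HSPA14), against 26.8% and 30.1% of 14197 genes (56.8% in either direction). HSPA6, HSPA9 and HSPA13 differed by at most 0.06. In the space of the log2 changes at both doses, taken over 3 libraries and 4476 protein-coding genes averaging 10 FPKM or more, the genes nearest to HSPA1A with HSPA1B were POC1A, NUBP2 and ZSCAN26, at distances of 0.04 to 0.05. Those nearest to HSPA8 included NEDD8 and EID1, each at a distance of 0.03.

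The partners of the family were counted in 7 lists, over genes averaging 1 FPKM or more, against 38.4% of 13785 such genes higher and 38.3% lower at 2.5 μM, and 38.6% higher and 40.2% lower at 5 μM. HSPA4, HSPA4L, DNAJB1, BAG3, HSPD1 and HSPE1 each belong to 2 lists and HSPH1 to 3. Of 8 cytosolic J-domain proteins, 5 were higher and 1 was lower at 2.5 μM, and 8 were higher at 5 μM, with medians of 0.34 and 0.56 that were 0.07 and 0.19, under the threshold, without mitochondrial and small RNA genes in the scaling. DNAJB1, the main heat-induced J-domain protein, had 36.9 FPKM in DMSO, 70.4 with 2.5 μM and 93.3 with 5 μM. DNAJB2, a J-domain protein that binds ubiquitinated clients, had 9.10, 16.8 and 23.3 FPKM, and DNAJA1 and DNAJA2 were higher by 0.58 and 0.47 at 5 μM. Among 10 nucleotide exchange factors 4 were higher and 2 lower at 2.5 μM, and 4 higher and 1 lower at 5 μM. BAG1, which links HSP70 to the proteasome, had 4.81, 12.4 and 11.6 FPKM, and HSPBP1, an exchange factor that also inhibits STUB1, had 17.2, 23.4 and 32.8. BAG6, which escorts mislocalised proteins to degradation, was higher by 0.49 and 0.58. BAG3, which connects HSP70 to selective autophagy, was within the threshold at 0.24 and 0.24, and HSPH1, an HSP110 protein, was lower, at -0.59 and -0.37. Rescaled without mitochondrial and small RNA genes, the median of this list was -0.08 instead of 0.21 at the lower dose and -0.23 instead of 0.14 at the higher, where removing a trend in transcript length gave 0.41.

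STUB1, the ubiquitin ligase that docks on HSP70, had 12.7 FPKM in DMSO, 12.8 with 2.5 μM and 16.5 with 5 μM, log2 changes of 0.01 and 0.37. In its list of 6 adaptors and ubiquitin enzymes, 3 were higher and 1 lower at 2.5 μM, and 5 were higher and 0 lower at 5 μM, with medians of 0.23 and 0.53, which were -0.06 and 0.15 under that rescaling. UBE2D2, a ubiquitin-conjugating enzyme that works with STUB1, had 43.4, 83.8 and 88.5 FPKM, and UBE2D1 and UBE2D3 were higher by 0.75 and 0.68 at 5 μM. Among 10 mitochondrial partners of HSPA9, 7 were higher and 2 lower at 2.5 μM, and 7 were higher and 0 lower at 5 μM. TIMM44, which tethers mortalin to the import channel, had 11.3, 31.3 and 34.5 FPKM, and GRPEL2, a mitochondrial nucleotide exchange factor, had 11.1, 29.8 and 25.4. DNAJA3, the mitochondrial J-domain protein, was higher by 0.31 and 0.70. GRPEL1, the main mitochondrial exchange factor, was higher by 0.46 and 0.40, and ISCU, the scaffold of iron-sulphur clusters, by 0.83 and 0.99. Of the 3 expressed ribosome-associated partners all were higher at each dose, where DNAJC2, the partner of HSPA14, had 3.84, 9.04 and 5.91 FPKM. BTF3 and NACA, the subunits of the nascent polypeptide-associated complex, were higher by 0.98 and 0.85 at 5 μM. The median of the mitochondrial list was 0.45 and 0.53, and 0.16 and 0.15 under that rescaling, while that of the ribosome-associated list was 0.80 and 0.85, and 0.51 and 0.47.

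The heat shock factors HSF1 and HSF2 and the 11 of their targets that were expressed did not share 1 direction. At 2.5 μM 6 were higher and 5 lower, and at 5 μM 6 were higher and 4 lower, with medians of 0.24 at both doses that turned to -0.05 and -0.14 with the libraries rescaled without mitochondrial and small RNA genes. These counts and medians include HSF1 and HSF2, which were both higher at each dose, so they do not describe the targets alone. HSF1, the main stress-responsive factor, had 32.2 FPKM in DMSO, 72.7 with 2.5 μM and 77.2 with 5 μM, and HSPB1, the small chaperone HSP27, had 321, 733 and 912. DEDD2 had 12.5, 18.4 and 32.5 FPKM. In contrast, the cytosolic HSP90 genes HSP90AA1 and HSP90AB1, which were picked out after their values were seen, were lower, at -0.64 and -0.67 at 2.5 μM and -0.41 and -0.33 at 5 μM. SERPINH1, the collagen chaperone HSP47, also picked out after its values were seen, had 31.1, 12.6 and 16.7 FPKM, with log2 changes of -1.30 and -0.89 that were the lowest of the list. Of 5 expressed genes among the more distant relatives, HSPA5 (BiP) had 209, 305 and 353 FPKM, and HYOU1, its exchange factor in the endoplasmic reticulum, was within the threshold at 0.21 and higher at 0.36. HSPA4, an HSP110 protein, was within the threshold at 0.19 and -0.11. The median of that list was 0.19 and 0.01, and at 5 μM it was -0.35 with the libraries rescaled without mitochondrial and small RNA genes and 0.52 with a trend in transcript length removed. Several of these partners have processed pseudogenes or overlapping genes, and the use of strand in counting is not stated, so values of single genes are uncertain.

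**Figure D4:**
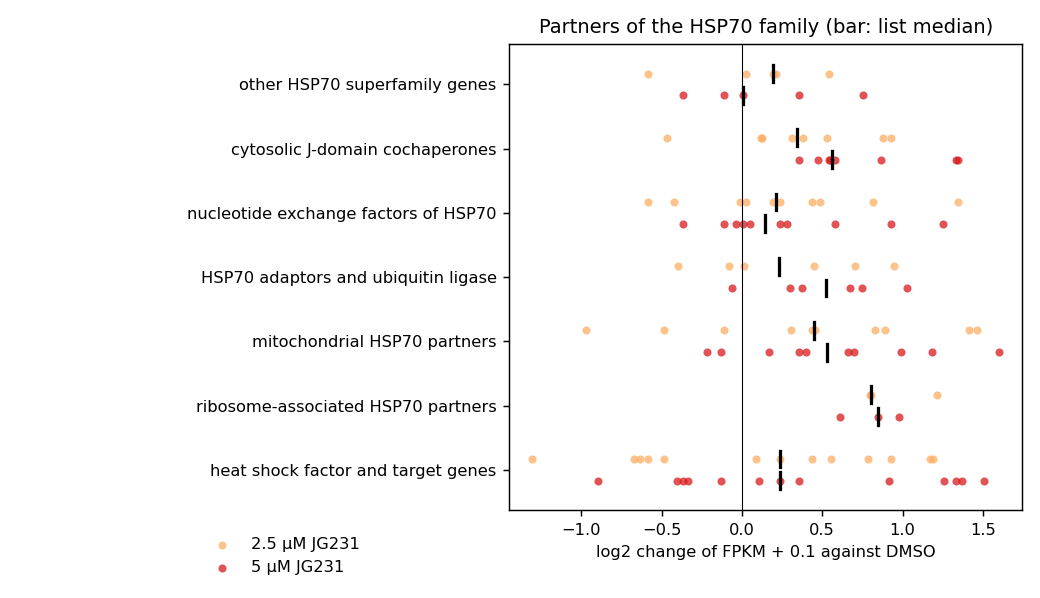
Log2 change against DMSO of each expressed partner of the family (1 point per gene) in 7 lists, at 2.5 μM (orange, upper row of each list) and 5 μM JG231 (red, lower row), with black bars at list medians. On the deposited scale, all 8 cytosolic J-domain proteins lie above 0 at 5 μM, while the heat shock factor list spreads to both sides of 0.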

How the data were processed

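RNA-seq was carried out on 3 stranded libraries from H660 cells, 1 each for DMSO, 2.5 μM and 5 μM JG231. The authors deposited FPKM values per gene, aligned to GRCh38. The submitters' processing notes name HISAT2 and featureCounts, whereas the study's methods name StringTie, and versions, annotation release, use of strand and treatment of reads matching several genes are not given in the sources used here. How shared reads were counted can therefore change the values of HSPA1A and HSPA1B, which were also summed, and that of the sum.

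Log2 changes were computed with a pseudocount of 0.1 FPKM. Genes over 1 FPKM in either library were counted past an absolute change of 0.25. With no replicates no test across genes was run. Fragment numbers were approximated from the smallest step between FPKM values times the GENCODE release 44 canonical length. Of values under 50 fragments, 88.7%, 86.1% and 84.5% came out whole within 0.05 in DMSO, 2.5 μM and 5 μM. They gave 95% counting intervals (exact), which cover counting error only. The scripts were tested on simulated data. Computation ran in Python 3.11.15 with scipy 1.17.1 for intervals, statsmodels 0.14.6 for lowess, pandas 2.3.3 and numpy 2.4.6 for tables, and matplotlib 3.10.9 for plots. Alternatives were the pseudocount, the filter, the threshold, 3 rescalings and a length correction.

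The members and partner lists were chosen with earlier results of these data known. All members were named. Partners given with values were up to 4 per list with the largest absolute log2 change at 5 μM among genes averaging 5 FPKM or more, together with HSPA5, STUB1, DNAJB1, BAG3, HSF1, GRPEL1 and DNAJC2, and any other is stated as picked after its values were seen. A comparison of protein sequences was planned and not carried out. Some marker genes and 1 gene with a pattern near that of HSPA8 are not reported here.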

Additional observations from a re-analysis of the deposited data

How the results depend on the processing

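With 1 library per condition, values carry no biological error, and no library could be left out. No paired analysis was possible because each condition has 1 library. The direction of HSPA6, HSPA9, HSPA13, HSPA1L and HSPA8 was kept under each alternative run. Adding HSPA5 to the family gave HSPA8 36.0%, 21.2% and 24.1%, and HSPA1A with HSPA1B 6.17%, 7.0% and 8.90%, in DMSO, 2.5 μM and 5 μM. Rescaling without mitochondrial and small RNA genes gave, at 2.5 μM, log2 changes of -0.017 for HSPA1A (reversed), 0.23 for HSPA1B, 0.18 for their sum and -0.36 for HSPA14. At that dose it left 3 members higher and 3 lower, with medians of 0.11 for members, 0.069 for J-domain proteins and 0.16 for mitochondrial partners. At 5 μM it gave -0.45 for HSPA8 and medians of 0.19 for J-domain proteins, 0.15 for adaptors, 0.15 for mitochondrial partners and -0.35 for other superfamily genes (reversed). Removing a trend with transcript length gave, at 2.5 μM, 0.11 for HSPA1A, -0.32 for HSPA14 and medians of 0.25 for members, 0.21 for J-domain proteins and 0.29 for other superfamily genes, and at 5 μM -0.32 for HSPA8 and medians of 0.18 for mitochondrial partners, 0.41 for exchange factors and 0.52 for other superfamily genes. Scaling to 1 FPKM sum gave 2.5 μM medians of 0.28 for adaptors, 0.29 for the heat shock factors with their targets and 0.26 for exchange factors. A pseudocount of 1 gave 0.24 for HSPA1A and 0.23 for the J-domain median at 2.5 μM. Summing both HSPA14 rows, an alternative added after seeing the data, gave -0.17 at 5 μM and left 1 member lower there, although this sum mixes HSPA14 with MSANTD7. Past a log2 change of 1, 1 and 2 members were higher (HSPA1B by 1.05, and by 0.67 to 0.92 under 3 alternatives) and 0 and 0 lower. A mean FPKM of at least 5 left 1 member lower at each dose, and the share of all genes was not computed there. The cause of these shifts was not tested.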

Other observations

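HSPA12A and HSPA12B, distant HSP70 relatives whose ATPase domains are divergent, were low in DMSO at 0.793 and 1.2 FPKM, stood at 0.0830 and 0.0935 FPKM at 2.5 μM, and were listed at 0 at 5 μM. They were picked out after their values were seen. Across the whole table, genes above 0 also became fewer along this series, although the estimated depth rose. The DMSO library held 21862 such genes, the lower-dose library 19352 and the higher-dose library 17293. Whether HSPA12A and HSPA12B fell more than other genes of similarly low level was not tested. Among the HSPA8 pseudogenes, HSPA8P15 had 0.791 FPKM in DMSO, 0 with 2.5 μM and 2.22 with 5 μM, and HSPA8P11 had 0, 0.569 and 0.460 FPKM, on at most 42 fragments in any library.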
